A study of Mus musculus with 1600 samples.

Results

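The cells described here are 63 cartilage-like cells of the embryonic mouse hind limb, 33 from E15.5 and 30 from E12.5 (embryonic stages named by days of development), chosen out of 480 single cells in the count table. They were chosen by measured levels in the same table. A cell was taken if it had at least 1000 detected genes, at least 500 CPM (a cell's counts scaled to a common total) of Col2a1 and at least 50 CPM of Col9a1, Col9a2 and Col9a3 summed, so the levels of these 4 genes are a description and not a finding. The E15.5 and the E12.5 group came from SCX-GFP transgenic C57BL/6 embryos, a line in which a green fluorescent protein marks cells that use Scx, which encodes an early transcription factor of the tendon lineage. No sort on that protein is stated in the sources used here, and no treatment of the animals is stated. Limbs of siblings from 1 litter, 3 to 5 limbs in a pool, were combined and dissociated for each stage, and single cells were captured with the Fluidigm C1 system. Each stage is therefore 1 sample. No test over samples is possible, and the comparison of E15.5 with E12.5 below is a description of these cells.

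Limb cartilage forms when mesenchyme cells condense, switch on Sox9 and begin to secrete type II collagen. Chondrocytes then build a matrix of types II, IX and XI collagen and the proteoglycan aggrecan, and in the growth plate they pass through proliferating and hypertrophic stages under the control of Ihh, Pthlh and Fgfr3 signals. The surrounding perichondrium, the joint interzones and the tendons derive from neighbouring mesenchyme and make fibrillar collagens such as types I and III.

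Of the cells with at least 1000 detected genes, 33 of 200 passed at E15.5 (16.5%, exact 95% binomial interval 11.6 to 22.4, covering counting error only) and 30 of 158 at E12.5 (19.0%, 13.2 to 26.0), while 1 of 119 passed at E10.5. The cells came in library pools of 40 cells that share the same 40 cell barcodes, and no 2 cells had identical counts. At E15.5 pools 8 to 12 held 10, 8, 8, 6 and 1 cartilage-like cells, and at E12.5 pools 4 to 7 held 4, 9, 12 and 5. Depth was alike at both stages, with 206107 counts in the median E15.5 cell (43467 to 843182) and 206456 in the median E12.5 cell (52442 to 646437), and 4605 against 4149 detected genes. The thresholds lay within a continuous range of values. The lowest Col2a1 level inside was 518.5 CPM at E15.5 and 511.7 CPM at E12.5, and the highest level outside was 455.6 CPM at E15.5 and 465.1 CPM at E12.5. Among cells at the Col2a1 threshold, 8 of 41 at E15.5 and 6 of 36 at E12.5 missed the type IX collagen threshold, with sums of up to 38.6 CPM at E15.5 and 26.4 CPM at E12.5.

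Summed over the chosen cells, Col2a1, the main collagen of cartilage, was at 3484 CPM at E15.5 and 2041 CPM at E12.5. Col9a1, a chain of type IX collagen, which coats the type II fibrils, was at 736 CPM at E15.5 and 407 CPM at E12.5. Col9a2, the second chain, was at 411 CPM at E15.5 and 254 CPM at E12.5. Col9a3, the third, was at 736 CPM at E15.5 and 278 CPM at E12.5. The single cells overlapped widely in each of these genes. For Col9a1 the median cell was at 58.9 CPM at E15.5 and 344 CPM at E12.5, the opposite order to the summed level, and the highest E15.5 cell was at 5949 CPM.

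The label was checked against other cartilage genes. Sox9, the transcription factor that founds the chondrocyte lineage, was read in 29 of 33 cells at E15.5 and 27 of 30 cells at E12.5. In the cells outside the choice it was read in 83 of 167 at E15.5 and in 99 of 128 at E12.5, so at E12.5 it was common in both. Acan, which encodes aggrecan, was read in 26 of 33 cells at E15.5 and in 4 of 30 at E12.5, and in 25 of 167 and 3 of 128 of the cells outside the choice. Of the 26 cartilage matrix genes listed besides those of the choice, the median cell had 7 at 50 CPM or more at E15.5 (1 to 18) and 2.5 at E12.5 (0 to 10). Summed over these genes, the median E12.5 cell was at 1021 CPM in the choice and 349 CPM outside it. Type II and type IX collagen were fixed by the choice, and most of the chosen E12.5 cells showed few other cartilage matrix genes. The label of the E12.5 cells thus rests mostly on the genes of the choice. Fibrillar matrix genes of perichondrium, bone and connective tissue were not lacking in the chosen cells. Their median sum at E15.5 was 19243 CPM in the choice and 16282.5 CPM outside it. At E12.5 it was 3148 CPM in the choice and 3840 CPM outside it. Pitx1 and Tbx4, hind limb factors, were read in 18 and 14 chosen cells at E15.5 and in 23 and 13 at E12.5.

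Markers of other cell types were present in some of the chosen cells. Summed levels of at least 1000 CPM of skin epithelium, skeletal muscle or neural markers were found in 5 of 33 cells at E15.5 and in 3 of 30 at E12.5. Because of this, results are also given without these 8 cells where a call depended on them.

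For the comparison, the level of a gene was its summed count over the summed totals of the cells of a stage, and the log2 ratio of E15.5 over E12.5 was taken after adding 10 CPM to both levels, which understates the change of low genes. A gene counted as higher or lower if this ratio was at least 1 in size (2-fold) both over all cells and without the cell with the highest CPM of the gene at the higher stage, so a call can be lost while the ratio over all cells stays past 1. Below, a value in brackets after a pair of levels is this log2 ratio. Of 10970 genes read in at least 5 cartilage-like cells, 793 were higher at E15.5 (7.23%) and 5.78% were lower. The median log2 ratio over these genes was -0.05. By library pool, all 5 E15.5 pools lay above all 4 E12.5 pools for 157 genes (1.43%) and below them for 163 (1.49%), which is called pools apart below. The pools are a technical split of the 1 sample of a stage, and each pool holds cells of 1 stage only. Pools apart is therefore not replication, and it cannot tell stage from library pool. Both past 2-fold and apart were 119 higher genes (1.08% of the 10970 genes) and 105 lower genes (0.957% of the 10970).

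The cartilage matrix genes outside the choice were mostly higher. Of 21 measured members, 15 were higher at E15.5 and 0 were lower, against 7.23% and 5.78% of all genes, with a median log2 ratio of 1.69. The 5 members with pools apart were Acan, Comp, Lect1, Cytl1 and Cthrc1. Summed over the whole list, the median cell was at 3579 CPM at E15.5 and 1021 CPM at E12.5, and the ranges overlapped, from 181 to 17757 CPM and from 0 to 5739 CPM. The number of higher members ran from 11, without pool 9, to 16 on leaving out single pools, and it was 13 without the 8 cells with markers of other types.

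Acan (chromosome 7, 79053483 to 79115099, plus strand; GENCODE annotation of GRCm38) encodes the large proteoglycan that gives cartilage its resistance to compression. It was at 237 CPM at E15.5 (exact Poisson 95% interval 227 to 248, counting error only) and 17.8 CPM at E12.5 (14.8 to 21.2), a log2 ratio of 3.15. In pools 8 to 12 it was at 166, 595.3, 81.1, 122 and 293 CPM, and in pools 4 to 7 at 0, 0.756, 49.6 and 0 CPM. Every E15.5 pool was above every E12.5 pool, and 18 of 33 E15.5 cells, spread over all 5 pools, reached 50 CPM against 3 of 30 E12.5 cells. The 3 E12.5 cells were all in pool 6. The log2 ratio was 4.57 without pool 6 and 2.42 without pool 9.

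Cytl1 (chromosome 5, 37735519 to 37739820, plus strand) encodes a small secreted protein of chondrocytes. Its level was 645 CPM at E15.5 and 45.2 CPM at E12.5, with a log2 ratio of 3.57. Pools 8 to 12 were at 284, 1204, 421, 399 and 2224 CPM and pools 4 to 7 at 0, 0, 128 and 0 CPM. All E12.5 counts lay in pool 6, where 1 cell held 93.1% of them, and the log2 ratio was 6.03 without that pool. Lect1 (chondromodulin, now named Cnmd; chromosome 14, 79637690 to 79662170, minus strand) encodes a cartilage protein that keeps blood vessels out. It was at 459.5 CPM at E15.5 and 69.2 CPM at E12.5, with 383, 586.6, 286, 231 and 1808 CPM in pools 8 to 12 and 62.9, 38.2, 129.6 and 0 CPM in pools 4 to 7. The pools were apart, the log2 ratio was 2.57 (3.34 without pool 6), and 15 of 33 cells at E15.5 and 4 of 30 at E12.5 reached 50 CPM. Comp, cartilage oligomeric matrix protein, was at 59.4 CPM at E15.5 and 1.69 CPM at E12.5, a log2 ratio of 2.57, and reached 50 CPM in 8 cells at E15.5 and 1 cell at E12.5.

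**Figure D1:**
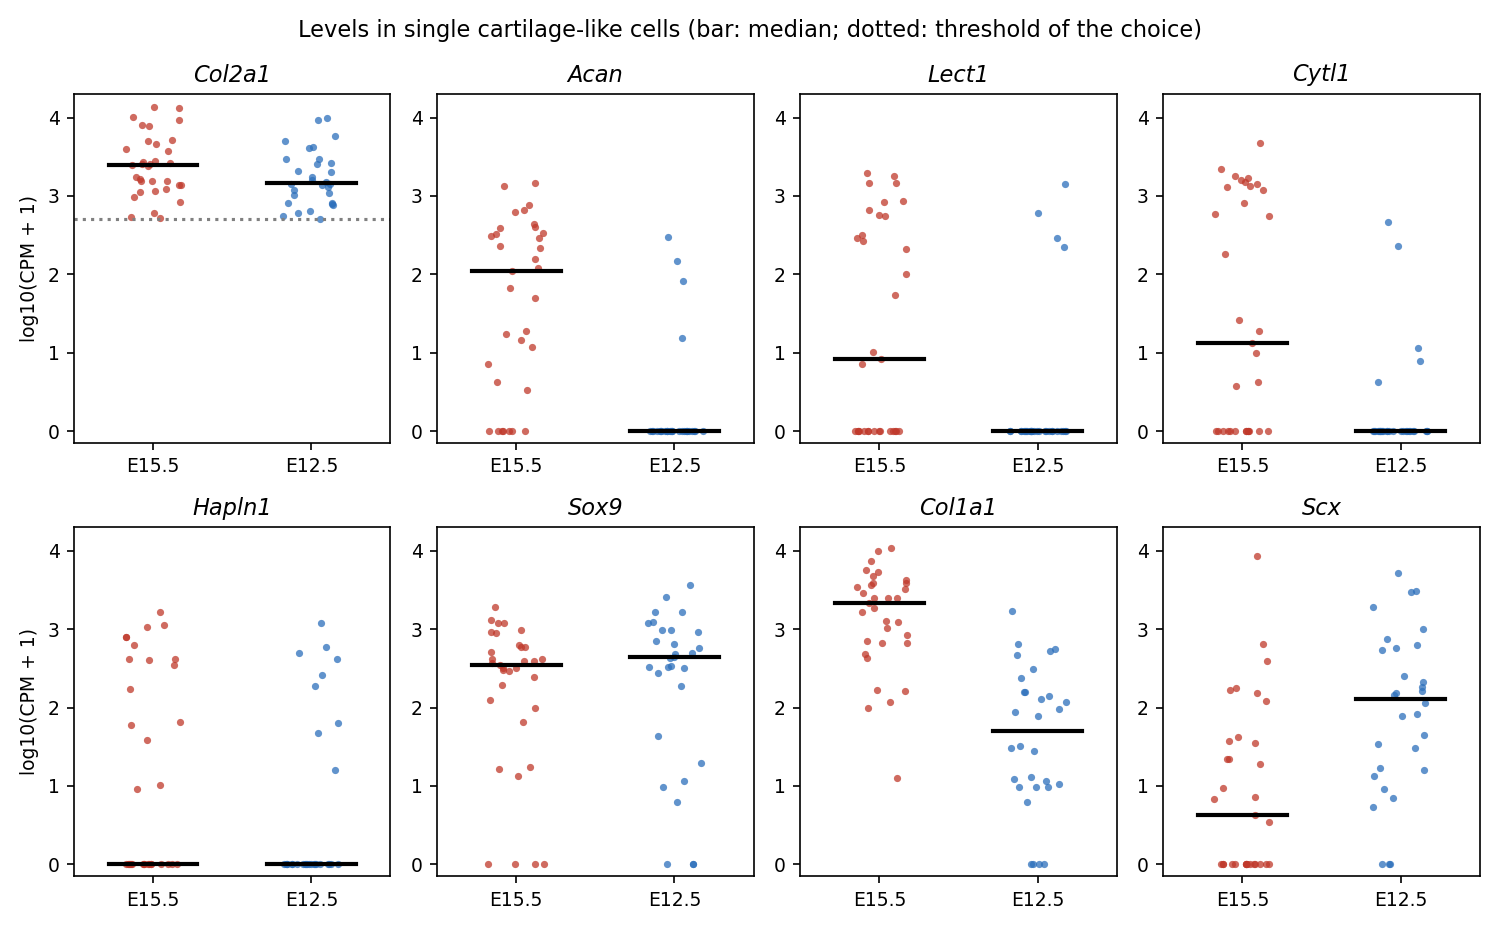
Levels of 8 genes in the 33 E15.5 (left, red) and 30 E12.5 (right, blue) cartilage-like cells, as log10 of CPM plus 1; each point is 1 cell, bars are medians, and the dotted line is the Col2a1 threshold of the choice. Acan, Lect1 and Cytl1 are at 0 in most E12.5 cells, Sox9 overlaps at both stages, and Scx has its higher median at E12.5.

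To show what lies upstream of the genes whose pools were apart, the 250 bases before the RefSeq start (GRCm38.p6) are printed for the 3 of these 5 genes that have an entry in the promoter table, read 5′ to 3′ on the strand of the gene. Capitals mark the GC box GGGCGG on either strand, a binding motif of SP factors. The Acan window is chr7:79052976-79053225 (plus strand), the Cytl1 window is chr5:37735269-37735518 (plus strand) and the Lect1 window is chr14:79662184-79662433 (minus strand).
Acan: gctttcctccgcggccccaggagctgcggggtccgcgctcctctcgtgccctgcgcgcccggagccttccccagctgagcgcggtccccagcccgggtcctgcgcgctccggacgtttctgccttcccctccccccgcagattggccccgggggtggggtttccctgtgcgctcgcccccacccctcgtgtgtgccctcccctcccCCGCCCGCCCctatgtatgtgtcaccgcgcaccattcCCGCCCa
Cytl1: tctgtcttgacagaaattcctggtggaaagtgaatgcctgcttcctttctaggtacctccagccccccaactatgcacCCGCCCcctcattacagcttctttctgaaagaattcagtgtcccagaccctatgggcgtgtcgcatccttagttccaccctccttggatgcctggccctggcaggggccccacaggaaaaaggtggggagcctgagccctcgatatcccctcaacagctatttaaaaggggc
Lect1: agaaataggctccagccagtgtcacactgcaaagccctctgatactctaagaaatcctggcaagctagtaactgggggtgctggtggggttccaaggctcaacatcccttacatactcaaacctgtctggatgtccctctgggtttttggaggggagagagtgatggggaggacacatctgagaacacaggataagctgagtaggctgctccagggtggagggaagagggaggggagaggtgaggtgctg
The Acan window held 3 matches, 2 of them overlapping, the Cytl1 window 1 and the Lect1 window 0. Among the 10 cartilage matrix genes past 2-fold with an entry, 5 windows held a GC box, against 32.7% of all 32851 windows of this length. The cores of SOX motifs, ACAAAG and ACAATG on either strand, were found in 0 of the 10 windows and in 25.2% of all windows. TATAAA on the strand of the gene was found in 0 of the 10 and in 7.59% of all. A window without a match says only that these letters do not occur there. The motifs were chosen after the ratios were known, and GC box and TATAAA after the windows had been read.

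Further matrix genes were higher without pools apart. Col11a1, a chain of type XI collagen, which nucleates the type II fibrils, was at 1328 CPM at E15.5 and 444 CPM at E12.5 (log2 ratio 1.56, 2.35 without pool 6), and reached 50 CPM in 31 of 33 cells at E15.5 and 21 of 30 at E12.5. Hapln1, the link protein that ties aggrecan to hyaluronan, was at 269 CPM at E15.5 and 81.8 CPM at E12.5 (1.60, 2.46 without pool 6; no call at 1.08 with each cell given the same weight and 1.13 with thinned cells). Matn1, a matrilin of cartilage, was at 107 CPM at E15.5 and 23.3 CPM at E12.5. Its log2 ratio of 1.81 was 0.94 without pool 9 and 1.25 without the cells with markers of other types, where it no longer counted as higher, and 3.55 without pool 6, which held all its E12.5 counts. Matn3, a related matrilin, was at 12.8 CPM at E15.5 and 0.847 CPM at E12.5, and was not called. Matn4 was at 16.8 CPM at E15.5 and 2.82 CPM at E12.5, and was called higher only without pool 6, 10, 11 or 12 or the cells with other markers (1.36, 1.13, 1.19, 1.08 and 1.12), among the pools and cells left out. Col11a2, another chain of type XI collagen, had 15.2 CPM at E15.5 and 11.3 CPM at E12.5. Smoc1, a calcium-binding matrix protein, had the lowest ratio of the list, with 15.7 CPM at E15.5 and 38.0 CPM at E12.5, also without a call.

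**Figure D2:**
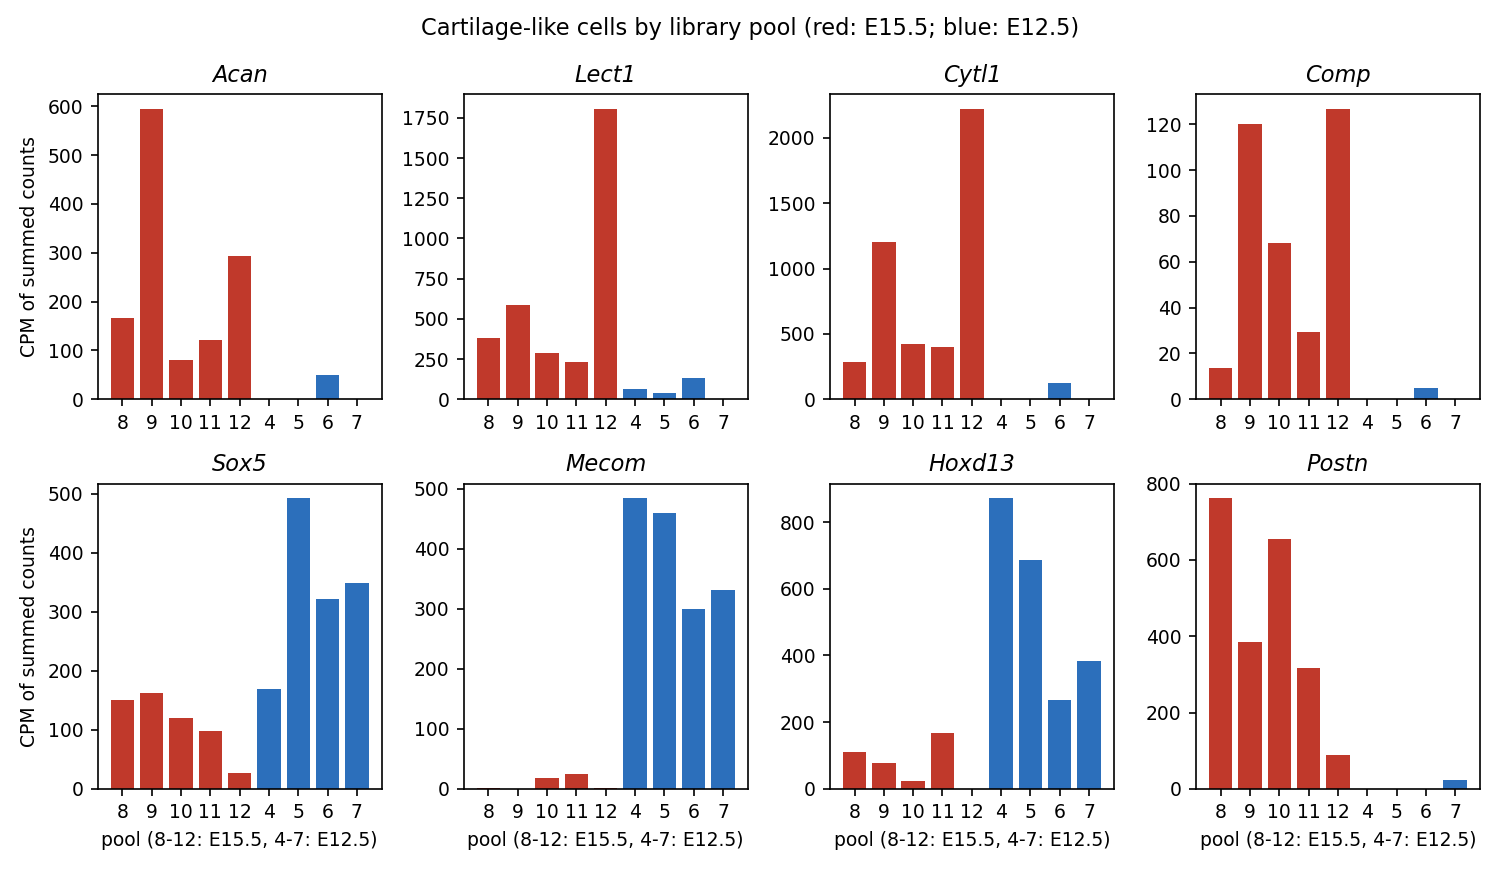
CPM of summed counts of the cartilage-like cells in each library pool, E15.5 pools 8 to 12 on the left (red) and E12.5 pools 4 to 7 on the right (blue), for 8 genes, each with its own axis. All 8 genes were taken from those with pools apart, so no E15.5 pool lies within the range of the E12.5 pools. Pools were apart for 1.43% of all genes with E15.5 higher and 1.49% with E15.5 lower. Pool 12 is 1 cell.

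The E15.5 cells varied widely among themselves. Over the 33 cells, Col2a1 had a Spearman rho of 0.74 with Acan, 0.68 with Lect1, 0.53 with Matn1 and 0.77 with the summed cartilage matrix list, and of 0.03 with the total count of the cell. Over the 30 E12.5 cells the same values were 0.46 for Acan, 0.25 for Lect1, 0.35 for Matn1, 0.50 for the list and -0.51 for the total count. These are descriptions over cells of 1 sample each, many of which are at 0 and which share their pools, and Col2a1 itself chose the cells, so its range begins at 500 CPM and nothing is read from these values. Of the 18 E15.5 cells with Acan at 50 CPM or more, 13 also had Lect1, 12 Cytl1, 9 Hapln1 and 6 Matn1 at that level. Over all 33 E15.5 cells 15 had Lect1, 14 Cytl1, 13 Hapln1 and 7 Matn1 at that level. Of the 3 such E12.5 cells, all had Matn1 and Sox9, 2 had Cytl1 and 2 had Hapln1, and 1 had Lect1. Gdf5, a growth factor of the joint interzone, was at 50 CPM or more in 0 of the 18 and 0 of the 3. It reached that level in 3 of all 33 E15.5 cells and 7 of all 30 E12.5 cells.

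Few of the transcription factors that set up chondrocytes were past 2-fold. Of 13 measured factors 1 was higher and 2 were lower at E15.5, against 7.23% and 5.78% of all genes, with a median log2 ratio of -0.56. Without pool 12, and also without the 8 cells with other markers, 2 were higher and 1 was lower. Summed over the list, the level was 2886 CPM at E15.5 and 2600 CPM at E12.5. These counts are small, and no direction of the list is read from them. Sox9 (chromosome 11, 112782224 to 112787760, plus strand) was at 481 CPM at E15.5 and 714 CPM at E12.5, with a log2 ratio of -0.56 that was not called. The pools overlapped, at 745, 522, 176, 458 and 289 CPM at E15.5 and 729, 985, 610.5 and 189.5 CPM at E12.5. Sox5 (chromosome 6, 143828425 to 144781977, minus strand), which acts with Sox9 on cartilage genes, was lower, at 131 CPM (123 to 138) at E15.5 and 366 CPM (352 to 381) at E12.5, a log2 ratio of -1.42. Its pools were apart, at 151, 163, 121, 97.5 and 27.0 CPM at E15.5 and 169, 493, 321 and 348 CPM at E12.5, although without pool 5 the ratio of -1.10 no longer counted as lower. Without the 8 cells with other markers it was -2.16. Sox6, its close relative, was at 87.1 CPM at E15.5 and 136 CPM at E12.5, without a call (-0.58, -1.34 without pool 8).

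Shox2, a homeobox factor of the proximal limb skeleton, was lower with pools apart, at 42.1 CPM at E15.5 and 112 CPM at E12.5 (-1.23). That call was lost without any 1 of pools 4, 6, 7, 11 and 12 (log2 ratios of -1.18, -1.04, -1.18, -1.12 and -1.16) and without the cells with other markers (-1.14). Foxc1, a forkhead factor of skeletal progenitors, was higher, with 133 CPM at E15.5 and 36.4 CPM at E12.5 (1.62), lost the call among cells with at least 1000 CPM of Col2a1 (1.02), and reached 50 CPM in 13 cells at E15.5 and 5 at E12.5.

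Of 23 genes of growth plate maturation, 10 were read in at least 5 cells and so measured. Ihh, the signal of prehypertrophic chondrocytes, had 10.2 CPM at E15.5 and 11.7 CPM at E12.5 and reached 50 CPM in 2 cells at E15.5 and 1 at E12.5. Col10a1, the collagen of hypertrophic chondrocytes, was read in 1 cell at E15.5 and 1 cell at E12.5, at summed levels of 0.236 CPM at E15.5 and 6.64 CPM at E12.5. Of the 10 measured genes 2 were higher and 0 lower, against 7.23% and 5.78% of all genes. Cdkn1a, an inhibitor of the cell cycle, was at 109 CPM at E15.5 and 6.07 CPM at E12.5 (2.89; 3.57 without pool 6 and 1.93 without pool 8). Runx2, which drives bone formation and hypertrophy, was at 95.1 CPM at E15.5 and 33.8 CPM at E12.5. Its ratio of 1.26 lost the call without pool 4, 8 or 9, at 1.11, 1.01 and 0.89. Runx3 and Mef2c, further factors of hypertrophy, were not called. Runx3 was at 74.8 CPM at E15.5 and 77.1 CPM at E12.5, and Mef2c at 223 CPM at E15.5 and 171 CPM at E12.5.

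Among 24 receptors and feedback genes of growth plate signalling, 0 were higher and 3 were lower, against 7.23% and 5.78% of all genes. Their median log2 ratio was -0.01. Fgfr3, which restrains chondrocyte proliferation, was at 126 CPM at E15.5 and 57.3 CPM at E12.5, and its ratio of 1.02 was under 1 without the highest cell; it was called higher without pool 5, 6 or 8 (1.15, 1.47 and 1.31). Pth1r, the receptor of Pthlh, was at 251 CPM at E15.5 and 125 CPM at E12.5 (0.95; called higher without pool 6, 8 or 11, at 1.67, 1.23 and 1.08). Without pool 6 the number of higher genes in this list was 3. The lower genes were Bmpr1b, a receptor for BMP ligands in condensing cartilage, and Gli2 and Gli3, the transcription factors of hedgehog signalling. Bmpr1b was at 8.98 CPM at E15.5 and 107 CPM at E12.5 with pools apart (-2.62; -1.88 without pool 6). Gli3 was at 106 CPM at E15.5 and 345 CPM at E12.5 (-1.61; -2.24 without pool 11; no call at -0.96 with each cell given the same weight and -0.99 with thinned cells). Gli2 was at 46.7 CPM at E15.5 and 123 CPM at E12.5, and its ratio of -1.23 lost the call without pool 5, 8, 9 or 10 (-0.79, -0.82, -1.08 and -1.10).

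Genes of glycosaminoglycan synthesis and sulfate handling, with sulfatases among them, moved in both directions. Of 21 measured, 3 were higher and 4 lower, against 7.23% and 5.78% of all genes, with a median log2 ratio of 0.12. With 50 CPM added 0 were higher and 1 was lower. Ust, a uronyl sulfotransferase, was at 46.7 CPM at E15.5 and 1.27 CPM at E12.5 (2.33; 1.71 without pool 10), and Galns, a lysosomal sulfatase, at 28.5 CPM at E15.5 and 0.141 CPM at E12.5 (1.92). Csgalnact1, which starts chondroitin chains, was at 58.7 CPM at E15.5 and 7.91 CPM at E12.5, and its ratio of 1.94 lost the call without pool 5, 8 or 11 (1.62, 0.76 and 1.87) and without the cells with other markers (1.91); without pool 6 it was 2.72. The lower genes included Ext1, a polymerase of heparan sulfate, at 70.2 CPM at E15.5 and 208 CPM at E12.5 (-1.44; no call at -1.15 with equal weights and -1.12 with thinned cells), and Chst3, a chondroitin 6-sulfotransferase, at 3.54 CPM at E15.5 and 59.7 CPM at E12.5 (-2.36; -1.72 without pool 4), both with pools apart. B3gat3, which completes the linker of these chains, was at 16.8 CPM at E15.5 and 74.8 CPM at E12.5 (-1.66; -2.43 without pool 9). Slc35d1, a nucleotide sugar transporter, had 0.118 CPM at E15.5 and 27.4 CPM at E12.5, and lost its call without pool 5, without pool 6 and without the cells with other markers (-1.93, -1.28 and -1.20). Papss2, which makes the sulfate donor, was at 354 CPM at E15.5 and 324 CPM at E12.5, a log2 ratio of 0.12.

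The group with the most members past 2-fold was fibrillar matrix of perichondrium, bone and connective tissue. Of 24 measured genes, 20 were higher and 0 lower, against 7.23% and 5.78% of all genes, with a median log2 ratio of 2.78. Pools were apart with E15.5 higher for 15 of them, against 1.43% of all genes. Summed over the list, the median cell was at 19243 CPM at E15.5 (554 to 43946) and 3148 CPM at E12.5 (819 to 15413). Leaving out single pools kept the number at 20. Col1a1 (chromosome 11, 94936224 to 94953042, plus strand), the more abundant chain of type I collagen, was at 2609.7 CPM (2575 to 2644) at E15.5 and 172 CPM (163 to 182) at E12.5, a log2 ratio of 3.85. The single cells ran from 11.6 to 10993 CPM with a median of 2169.9 at E15.5, and from 0 to 1711 CPM with a median of 53.7 at E12.5. Postn (chromosome 3, 54361109 to 54391037, plus strand), periostin of the perichondrium and tendon, was at 548 CPM at E15.5 and 3.11 CPM at E12.5, a log2 ratio of 5.41. It was at 762, 386, 656, 317 and 87.4 CPM in pools 8 to 12 and at 0, 0.756, 0 and 22.2 CPM in pools 4 to 7, and reached 50 CPM in 26 of 33 cells at E15.5 and 1 of 30 at E12.5.

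Ogn, a small leucine-rich proteoglycan, was at 192 CPM at E15.5 and 0.989 CPM at E12.5 (4.20; 3.52 without pool 8), and Col14a1, a collagen on the surface of fibrils, at 106 CPM at E15.5 and 0.141 CPM at E12.5 (3.51), both with pools apart. Col3a1, type III collagen, was at 1947 CPM at E15.5 and 544 CPM at E12.5 (1.82). Cartilage and fibrillar genes were read in the same cells. Of the 18 E15.5 cells with Acan at 50 CPM or more, 11 had Col1a1 at 1000 CPM or more and 15 had Postn at 50 CPM or more. Over all 33 E15.5 cells 22 had Col1a1 and 26 had Postn at these levels, so the shares among the Acan cells were close to those of all cells.

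Genes of collagen folding and secretion were higher in part, with 11 of 30 higher and 0 lower, against 7.23% and 5.78% of all genes. Their median log2 ratio was 0.64. Creb3l1, a factor of the secretory stress response in matrix-making cells, was at 119 CPM at E15.5 and 6.64 CPM at E12.5 (2.95, pools apart). P4ha3, a collagen prolyl hydroxylase, was at 62.5 CPM at E15.5 and 2.97 CPM at E12.5 (2.48). Crtap, of the collagen prolyl 3-hydroxylase complex, was at 150.1 CPM at E15.5 and 23.6 CPM at E12.5 (2.25). Sec23a, a coat protein of transport vesicles, was at 125 CPM at E15.5 and 25.1 CPM at E12.5 (1.94; 2.72 without pool 6).

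Matrix proteases and inhibitors had 7 of 19 higher and 1 lower, against 7.23% and 5.78% of all genes, with a median log2 ratio of 0.78. Ctsk, a collagen-degrading cathepsin, was at 101 CPM at E15.5 and 1.98 CPM at E12.5 (3.21, pools apart). Htra1, a secreted serine protease, was at 153 CPM at E15.5 and 28.9 CPM at E12.5 (2.07; 3.60 without pool 6; no call at 1.09 among cells with at least 1000 CPM of Col2a1). Its relative Htra3 was at 37.6 CPM at E15.5 with 0 counts at E12.5 (at least 88.7-fold higher against a floor of 3 counts over the stage), and Adamts2, which trims procollagens, at 25.5 CPM at E15.5 and 0.424 CPM at E12.5 (1.77). Adamts5, an aggrecan-cleaving protease, was the lower gene, at 56.0 CPM at E15.5 and 280.2 CPM at E12.5 (-2.14).

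**Figure D3:**
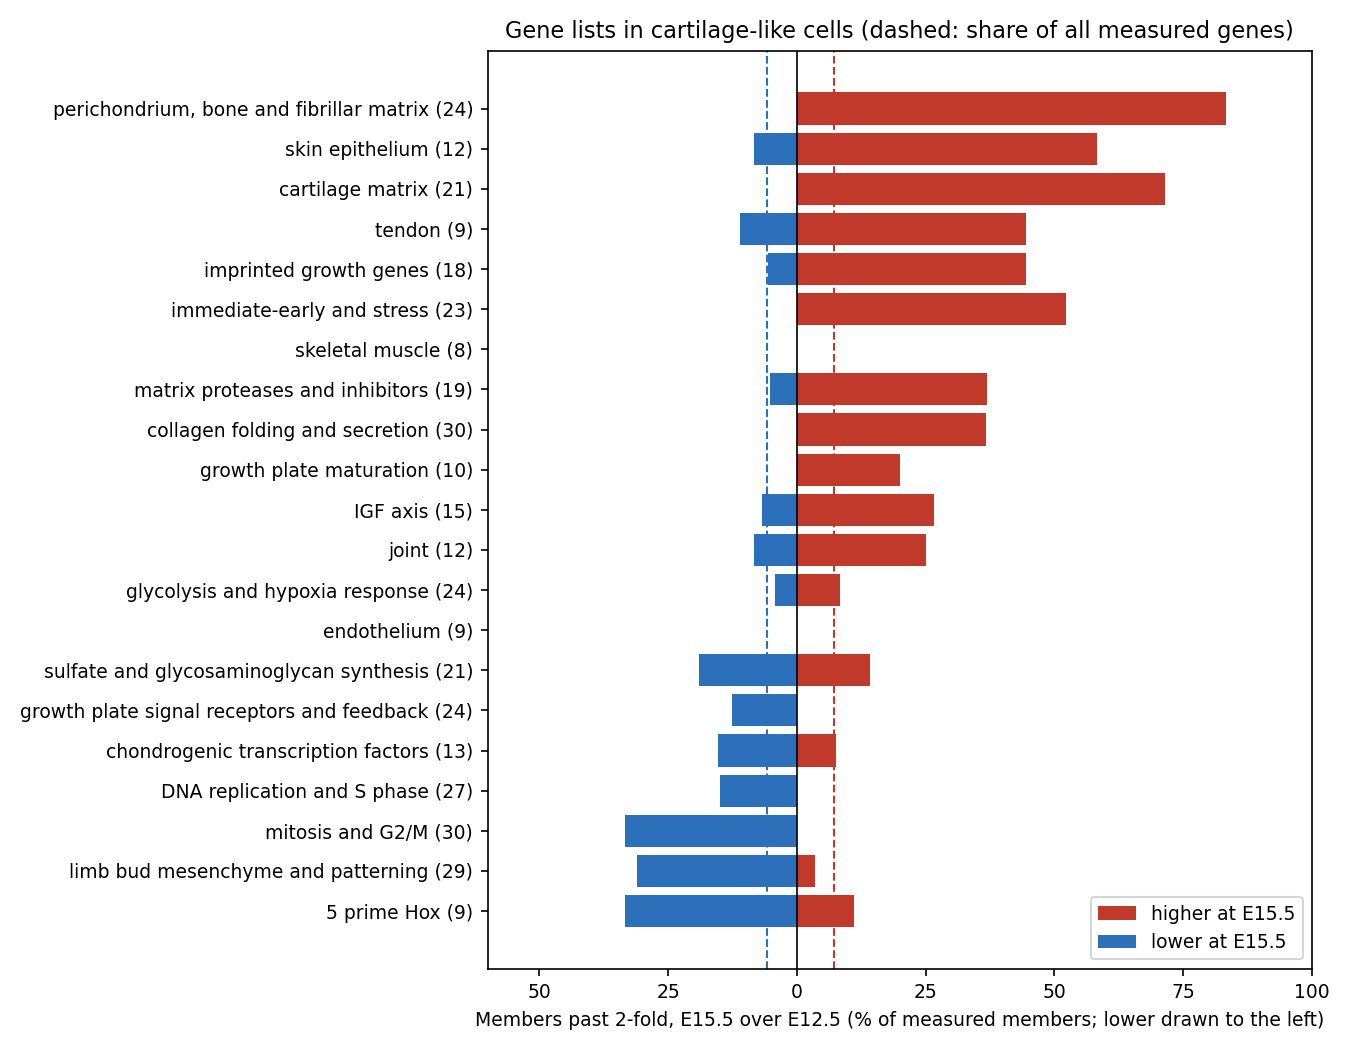
Share of the measured members of each gene list that were past 2-fold higher (red, to the right) or lower (blue, to the left) at E15.5 than at E12.5 in cartilage-like cells; the number of measured members is in brackets, lists are ordered by median log2 ratio, and dashed lines are the shares over all 10970 genes, 7.23% and 5.78%. Fibrillar and cartilage matrix lists stand far to the right with 0 lower members, and limb bud, 5 prime Hox and mitosis lists to the left.

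The tendon and joint lists were mixed. Of 9 tendon genes 4 were higher and 1 was lower, against 7.23% and 5.78% of all genes. Tnmd, tenomodulin of maturing tendon, was at 154 CPM at E15.5 and 10.0 CPM at E12.5 (3.04; 4.04 without pool 7 and 2.20 without pool 8), and Tnc, tenascin, at 193 CPM at E15.5 and 2.54 CPM at E12.5 (4.01). Fmod, fibromodulin, which is also in the cartilage matrix list, was at 145 CPM at E15.5 and 13.6 CPM at E12.5 (2.72). Scx, the early tendon factor, was lower, at 157 CPM at E15.5 and 598.6 CPM at E12.5 (-1.86). It reached 50 CPM in 7 of 33 cells at E15.5 and 18 of 30 at E12.5, and 1 cell of pool 11 held 78.4% of its E15.5 counts. Without pool 11 the ratio was -4.12. The call was lost with each cell given the same weight (-0.93), with cells thinned to 50000 counts (-0.84) and among cells with at least 1000 CPM of Col2a1 (-1.70).

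Of 12 joint genes 3 were higher and 1 lower, against 7.23% and 5.78% of all genes. Dkk3, a secreted protein of the Dickkopf family, was at 142 CPM at E15.5 and 22.6 CPM at E12.5 (2.22). Enpp2, the enzyme that makes lysophosphatidic acid, was at 135 CPM at E15.5 and 13.3 CPM at E12.5 (2.64; 3.80 without pool 6). Cd44, the hyaluronan receptor, was at 88.4 CPM at E15.5 and 2.68 CPM at E12.5 with pools apart (2.96). Gdf5 was lower, at 19.5 CPM at E15.5 and 103 CPM at E12.5 (-1.93), and lost the call without pool 5, 9 or 10 (-2.11, -1.70 and -1.64); it reached 50 CPM in 3 cells at E15.5 and 7 at E12.5.

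Limb bud genes were lower in part. Of 29 measured genes of limb bud mesenchyme and patterning, 9 were lower and 1 was higher, against 5.78% and 7.23% of all genes. The median log2 ratio was -0.89, and 6 to 12 were lower on leaving out single pools, the fewest without pool 7. Mecom (chromosome 3, 29951296 to 30548008, minus strand) encodes a transcriptional regulator with zinc fingers and had the lowest ratio of all genes eligible to be named. It was at 8.98 CPM (7.07 to 11.2) at E15.5 and 391 CPM (376 to 406) at E12.5, a log2 ratio of -4.40. The pools were at 1.11, 0.549, 17.5, 25.5 and 2.08 CPM at E15.5 and 485, 459.6, 300.4 and 331 CPM at E12.5, and 1 of 33 cells reached 50 CPM at E15.5 against 21 of 30 at E12.5. Zfhx3, a large homeobox factor, was at 305 CPM at E15.5 and 1188 CPM at E12.5 (-1.93, pools apart). Hmga2, a chromatin protein of growing embryonic tissue, was at 331 CPM at E15.5 and 1206 CPM at E12.5 (-1.83), and was at 50 CPM or more in 23 of 33 cells at E15.5 and in all 30 at E12.5. Lin28b, which blocks let-7 microRNA maturation, had 0 counts at E15.5 and 59.9 CPM at E12.5 (at least 169-fold lower against a floor of 3 counts over the stage), but its ratio of -2.80 was -0.24 without pool 5, and without pool 6 (-3.33) the call was lost as well. Tbx2, a T-box factor, was the higher gene, at 24.2 CPM at E15.5 and 3.95 CPM at E12.5 (1.29), and lost the call without pool 5 (1.09) or pool 11 (0.99).

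The 5′ Hox genes pattern the limb along its length, with Hoxd13 marking its far end. Of 9 measured members 3 were lower, all with pools apart, and 1 was higher. Among all genes 0.957% were lower with pools apart and 7.23% were higher. Hoxd13 (chromosome 2, 74668310 to 74671599, plus strand) was at 84.5 CPM at E15.5 and 526 CPM at E12.5 (-2.50), with 112, 78.5, 24.9, 167 and 0 CPM in pools 8 to 12 and 872, 685, 265 and 382 CPM in pools 4 to 7. Hoxd12 was at 3.31 CPM at E15.5 and 70.2 CPM at E12.5 (-2.59), and Hoxd10 at 19.8 CPM at E15.5 and 159 CPM at E12.5 (-2.50; -1.77 without pool 7). Hoxc8 was higher at 32.7 CPM at E15.5 and 5.65 CPM at E12.5 (1.45), a call lost without pool 5, 8 or 10 (1.20, 1.44 and 1.15) and without the cells with other markers (0.97).

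Proliferation genes were lower in part. Of 30 mitosis genes 10 were lower and 0 higher (median log2 ratio -0.88), and of 27 replication genes 4 were lower and 0 higher (-0.64). Among all genes 5.78% were lower and 7.23% higher. The mitosis count depended on the cells and on the weighting. Without pool 5, 0 of these genes were lower, without pool 6, 6 were, and without the cells with markers of other types, 4 were. It was 2 with each cell given the same weight, 2 with cells thinned to 50000 counts, and 17 among cells with at least 1000 CPM of Col2a1. Summed over the mitosis list, the median cell was at 1154 CPM at E15.5 and 3160 CPM at E12.5, and the ranges overlapped (49.7 to 19247 and 103 to 24279 CPM). Mki67, the marker of cycling cells, was at 332 CPM at E15.5 and 896 CPM at E12.5, and its ratio of -1.41 lost the call without pool 4, 5, 6, 8, 9 or 12, with values from -1.45 to -1.16, and without the cells with other markers (-1.26). Plk1, a mitotic kinase, was at 49.6 CPM at E15.5 and 188 CPM at E12.5 (-1.73; no call at -0.96 without pool 5 and at -1.19 without the cells with other markers, and -2.46 without pool 8). Kif11, a spindle motor, was at 41.1 CPM at E15.5 and 155 CPM at E12.5 (-1.69; no call at -1.25 without pool 5).

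Nasp, a histone chaperone of replicating cells, was lower with pools apart, at 196 CPM at E15.5 and 1019 CPM at E12.5 (-2.32), and kept this call on leaving out each pool. Mcm5, of the replicative helicase, was at 135 CPM at E15.5 and 402 CPM at E12.5 (-1.51), and lost the call without pool 4, 6 or 10 (-1.13, -1.49 and -1.36), and without pool 10 or pool 6 the number of lower replication genes was 2.

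Imprinted growth genes were higher in 8 of 18 and lower in 1, against 7.23% and 5.78% of all genes. Their median log2 ratio was 1.11, and without pool 10, 5 were higher. H19, an imprinted noncoding RNA expressed with Igf2, was at 5471 CPM at E15.5 and 1712 CPM at E12.5 (1.67; 2.26 without pool 6). Pools 8 to 12 were at 7875, 5820.0, 3607, 3829 and 3470.3 CPM, all above pools 4 to 7 at 1305, 1106, 2776 and 1007 CPM. Dlk1, a Notch-like surface protein, was at 546 CPM at E15.5 and 87.6 CPM at E12.5 (2.51, pools apart), and Plagl1, a zinc finger factor that regulates other imprinted genes, at 639.8 CPM at E15.5 and 160.3 CPM at E12.5 (1.93). Rian, a noncoding RNA, was at 72.9 CPM at E15.5 and 3.95 CPM at E12.5, and its ratio of 2.57 lost the call without pool 10 (2.09). Nnat, neuronatin, was lower with pools apart, at 99.1 CPM at E15.5 and 602.3 CPM at E12.5 (-2.49).

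In the IGF axis 4 of 15 genes were higher and 1 lower, against 7.23% and 5.78% of all genes. Igf2 was at 3112 CPM at E15.5 and 1818 CPM at E12.5, a ratio of 0.77 that was called only without pool 6 (1.31) among the pools left out. Igf1 was at 525 CPM at E15.5 and 40.2 CPM at E12.5 (3.41; 4.98 without pool 6), Igfbp5, a binding protein for both, at 994 CPM at E15.5 and 267 CPM at E12.5 (1.86, pools apart; 2.57 without pool 5 and 2.77 without the cells with other markers). Igf2r, the receptor that clears Igf2, was at 290.2 CPM at E15.5 and 109 CPM at E12.5 (1.33; no call at 0.71 without pool 5, and 2.09 without pool 6). Igf2bp1, an RNA-binding protein of embryonic cells, was lower, at 94.6 CPM at E15.5 and 255 CPM at E12.5 (-1.34; no call at -1.07 without pool 6).

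Glycolysis and hypoxia genes differed little, with 2 of 24 higher and 1 lower, against 7.23% and 5.78% of all genes. Hif1a, the oxygen-regulated factor that chondrocytes need in their avascular tissue, was at 184 CPM at E15.5 and 38.3 CPM at E12.5 (2.01), and reached 50 CPM in 18 cells at E15.5 and 6 at E12.5. Pfkl, a phosphofructokinase, was lower, at 77.0 CPM at E15.5 and 221 CPM at E12.5 (-1.41; no call at -1.08 without pool 7 or -1.07 without pool 8, and -2.21 without the cells with other markers). Immediate-early and stress genes can respond to the warm enzyme digestion used for both stages. Of 23 measured, 12 were higher and 0 lower, against 7.23% and 5.78% of all genes. Their median log2 ratio was 1.07, and leaving out single pools gave 8 to 11 higher, the fewest without pool 5. In the cells outside the choice 14 of 24 were higher and 0 lower, with a median log2 ratio of 1.22. Klf2, a shear- and stress-responsive factor, was at 248 CPM at E15.5 and 70.6 CPM at E12.5 (1.68; 3.16 without pool 6), and Zfp36, which destabilises cytokine mRNAs, at 142 CPM at E15.5 and 12.4 CPM at E12.5 (2.76, pools apart; 3.48 without pool 5). The part of tissue handling in the stage comparison was not tested.

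Outside the lists, S100a6, a small calcium-binding protein, was at 157 CPM at E15.5 with 0 counts at E12.5 and pools apart (at least 371-fold higher against the same floor of 3 counts). Anxa1, a membrane-binding annexin, was at 116 CPM at E15.5 with 0 counts at E12.5 (at least 274-fold higher), and Kctd12, a potassium channel domain protein, at 284 CPM at E15.5 and 12.1 CPM at E12.5 (3.73). Acta2, smooth muscle actin, was at 301 CPM at E15.5 and 2.54 CPM at E12.5, but reached 50 CPM in 5 cells at E15.5 and 1 at E12.5, and its ratio of 4.63 was 1.59, without a call, without pool 10. On the lower side, Pick1, a PDZ scaffold protein, was at 0.118 CPM at E15.5 and 83.6 CPM at E12.5 (-3.21), Prom1, prominin, at 1.77 CPM at E15.5 and 56.1 CPM at E12.5 (-2.49), and Trim59, a ubiquitin ligase family member, at 10.2 CPM at E15.5 and 141 CPM at E12.5 (-2.90), all with pools apart. Irs2, which relays insulin and IGF signals, was at 18.3 CPM at E15.5 and 240.1 CPM at E12.5 (-3.14; -2.26 without pool 4 and -4.18 without pool 10).

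Genes of other cell types entered the comparison. Of 12 measured skin epithelium genes 7 were higher and 1 was lower, against 7.23% and 5.78% of all genes. Without the 8 cells with other markers 0 were higher. Without pool 9, 3 were higher. Krtdap, a protein of differentiating keratinocytes, had the highest ratio of all genes eligible to be named, at 606.4 CPM at E15.5 with 0 counts at E12.5 (at least 1431-fold higher; log2 ratio 5.95 with 10 CPM added), and 0.81 without those cells (5.24 without pool 10). Of its 5133 counts, 5075 lay in 3 cells, while 25 of 33 cartilage-like cells and 112 of 167 other cells at E15.5 had at least 1 count. Krt10 and Perp, further epidermal genes, had ratios of 3.65 and 4.42 over all cells and -0.11 and 0.84 without those cells. Perp was at 5.63 without pool 5 and 3.75 without pool 9. Hspb1, a small heat shock protein, had 4.55 and 0.47. In the 28 remaining E15.5 cells the skin list summed to 18.7 to 754 CPM, with a median of 61.8 CPM. In the 27 remaining E12.5 cells it summed to 0 to 740 CPM, with a median of 0 CPM. A low skin signal thus stayed in the E15.5 cells after the 8 cells were left out. The cells outside the choice had median sums of 88.0 CPM at E15.5 and 2.96 CPM at E12.5.

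Of 8 skeletal muscle, 9 endothelium, 4 macrophage and mast cell and 2 neural genes measured, 0 were called in either direction, and 0 red cell genes were measured. Over all cells, before the highest cell was left out, 3 muscle, 1 endothelium and 2 neural genes were past 2-fold higher and 1 macrophage and mast cell gene was past 2-fold lower. In muscle, 1 cell of pool 8 held 1728 of the 1776 Actc1 counts at E15.5. The macrophage and mast cell list summed to 19.0 CPM at E15.5 and 26.0 CPM at E12.5, with 4 and 10 of its 15 genes at 0. The red cell list summed to 8.15 CPM at E15.5 and 0 CPM at E12.5.

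**Figure D4:**
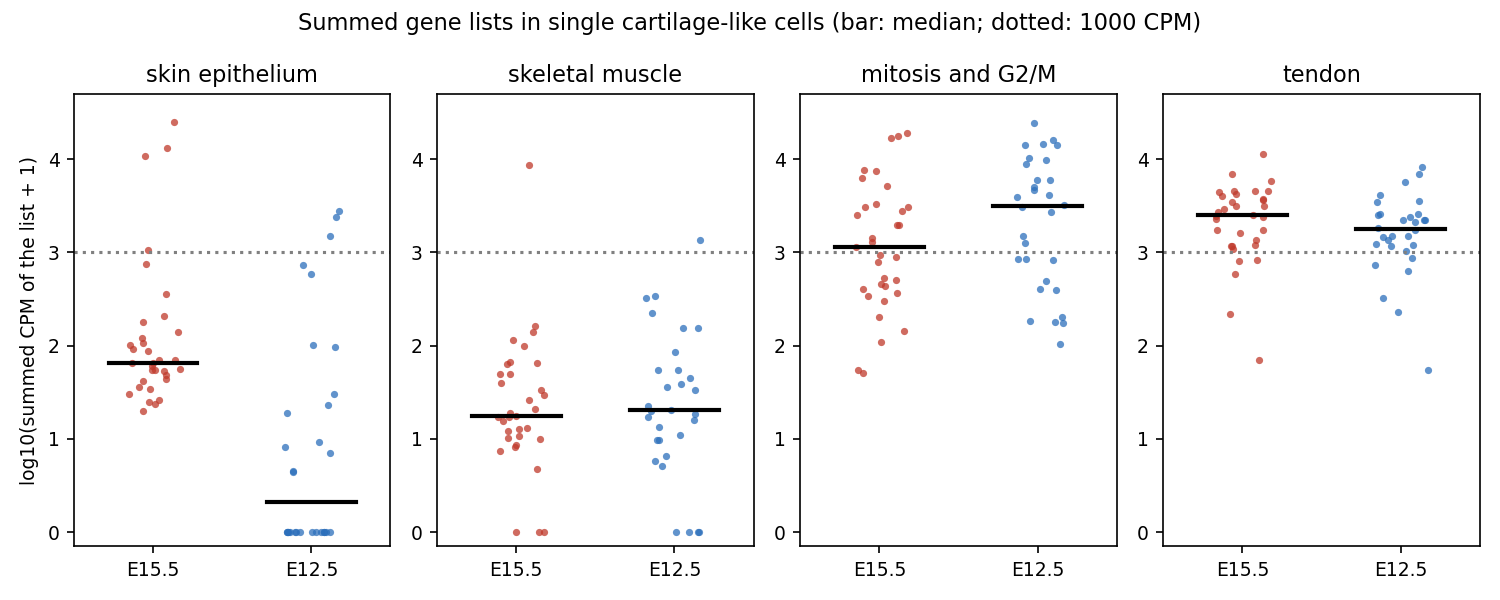
Summed CPM of 4 gene lists in each of 33 E15.5 (left, red) and 30 E12.5 (right, blue) cartilage-like cells, as log10 of CPM plus 1; bars are medians and the dotted line is 1000 CPM. Skin epithelium sums reach 1000 CPM in 4 E15.5 and 3 E12.5 cells and muscle sums in 1 cell of each stage, while mitosis and tendon sums overlap at both stages.

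The same ratio was taken in the other cells of each stage, 167 at E15.5 and 128 at E12.5, where 434 of 13640 genes were higher (3.18%) and 211 lower (1.55%). More cells were summed there, so the counts of calls in the 2 sets of cells are not on an equal footing. Of the genes higher in cartilage-like cells, 25.5% were also higher in the other cells, and 51.9% of those higher in the other cells were higher in cartilage-like cells (202 genes). For lower genes the shares were 11.0% and 34.1% (70 genes). Cartilage matrix genes were higher in 15 of 21 cases in cartilage-like cells and in 4 of 20 in the other cells. Fibrillar matrix genes were higher in 20 of 24 cases in cartilage-like cells and in 21 of 25 in the other cells. Acan was at 6.57 CPM at E15.5 and 0.0771 CPM at E12.5 in the other cells, and Postn at 380.2 CPM at E15.5 and 33.4 CPM at E12.5 (3.17). Limb bud genes were lower in 9 of 29 cases in cartilage-like cells and in 15 of 30 in the other cells, and mitosis genes in 10 of 30 and in 1 of 30. These differences between the 2 sets of cells were not tested, since each stage is 1 sample, and the choice by Col2a1 and type IX collagen sorts cells by genes that go with the cartilage list.

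**Figure D5:**
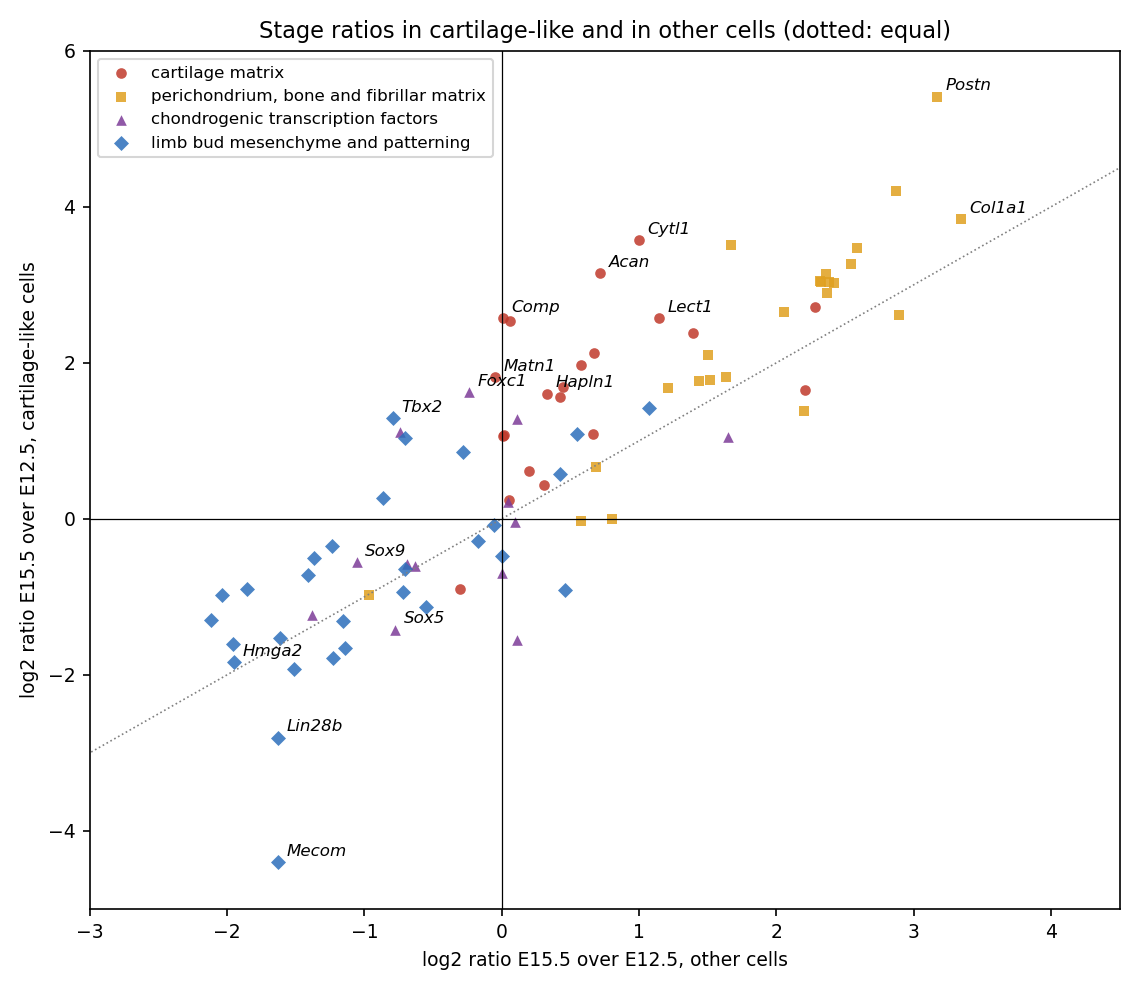
Log2 ratio of E15.5 over E12.5 (10 CPM added) in cartilage-like cells on the vertical axis and in the other cells on the horizontal axis, for the measured genes of 4 lists; the dotted line marks equal ratios. Acan, Comp and Matn1 of the cartilage matrix list lie high with other-cell ratios of 0.72, 0.01 and -0.05. Over that list the median other-cell ratio is 0.51, and 4 of the 20 genes measured there were higher in the other cells. The Acan levels in the other cells lie below the 10 CPM added, which understates their change. Comp and Matn1 were read in 7 and 12 of 167 other cells at E15.5 and in 1 and 2 of 128 at E12.5. Their ratios near 0 in the other cells thus do not show that they stayed level. Fibrillar matrix genes are mostly high on both axes, with median ratios of 2.78 in cartilage-like cells and 2.31 in the other cells.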

How the data were processed

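Per the labels' protocols, single cells of hind limbs were captured and reverse transcribed with the Fluidigm C1 system and made into libraries with the Nextera XT kit. The deposited table holds raw counts for each gene in each cell. Per the submitters' processing notes reads were aligned with Bowtie2 to mm10 and counted with featureCounts; no source used here gives versions, the strand setting or any use of molecular identifiers. Reads are not independent molecules without such identifiers, so exact Poisson and Clopper-Pearson 95% intervals cover counting error only. Stage and library pool came from the sample labels. Of 1600 samples, 1120 are not analysed here. Without a strand setting, overlapping and antisense genes cannot be told apart.

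Counts were divided by each cell's total (CPM), and levels of a stage are summed counts over summed totals. The log2 ratio used 10 CPM added, genes with a count in at least 5 cartilage-like cells, and a threshold of 2-fold with and without the cell with the highest CPM at the higher stage. Each stage is 1 sample, so no p-value was computed. The 24 gene lists, the choice of cells and the motifs were made with earlier results of these data known. Named genes are those past 2-fold, read in at least 40% of the cells and at 50 CPM or more at the higher stage, that ranked in the top 12 by ratio on either side (ribosomal protein genes and predicted genes left out), up to 4 called genes per list and direction with at least 20 CPM, a set of fixed genes, and the 4 genes of the choice; Cthrc1, Smoc1, Pitx1, Tbx4, Actc1 and Pthlh are named besides, after their values were seen. Of 492 list symbols 2 were not matched, and 4 were matched by an older name. Among the symbols, 298 occur more than once, with 0.101% of the counts. Rows of such a symbol with identical counts were kept once, and its differing rows were summed. Scrublet in scanpy 1.11.5 called 29 of 200 E15.5 and 8 of 158 E12.5 cells doublets, 5 and 0 of them cartilage-like, and these were kept in the results. Alternatives were another amount added, filter, weighting, scaling, thinning to 50000 counts, other thresholds, leaving out each pool, doublets left out, and, chosen after seeing the data, leaving out cells with at least 1000 CPM of markers of another cell type. Python 3.11.15, numpy 2.4.6, pandas 2.3.3 and scipy 1.17.1 were used.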

Additional observations from a re-analysis of the deposited data

Results flagged for a closer look

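Each of 7 genes was past 2-fold in one direction in cartilage-like cells and in the other direction in the remaining cells of the same stages. The difference between the 2 sets of cells was not tested. Abca1, a cholesterol transporter, was lower at E15.5 in cartilage-like cells, with a log2 ratio of -1.40, and had 1.29 in the other cells. C530008M17Rik had 1.41 in cartilage-like cells and -1.76 in the others. Cdkn2aipnl had 1.37 and -1.07, Ube2ql1 had 1.83 and -1.44, and Wdr3 had 1.29 and -1.30. Pisd-ps1 and Pisd-ps3 had -1.27 in cartilage-like cells and 1.08 and 1.07 in the others. They are pseudogenes of Pisd with nearly the same counts and are uncertain, since near-identical copies can share reads. The levels behind these ratios are low, at most 113 CPM in cartilage-like cells.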

How the results depend on the processing

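The numbers of genes past 2-fold higher and lower at E15.5 were 1432 and 1106 with 1 CPM added, 164 and 120 with 50 CPM added, and 1412 and 1375 when the cell with the highest CPM of a gene was not left out. On leaving out single pools they ran from 643 (without pool 10) to 1167 (without pool 6) and from 530 (without pool 5) to 791 (without pool 11). The number of E12.5 cartilage-like cells ran from 18 (without pool 6) to 30, and that of E15.5 from 23 to 33. Of 97 named genes with a call, 30 lost it on leaving out some single pool and 52 under at least 1 alternative, 37 of them with 50 CPM added. The only direction that turned was that of Krt10, at -0.11 without the 8 cells with markers of other types. Under the remaining settings these totals of genes and cells stayed within 1.5 times, but over all settings and lists 146 counts of list members moved by more than 1.5 times. With 50 CPM added 8 cartilage matrix, 5 collagen folding, 6 immediate-early, 3 skin and 0 glycosaminoglycan genes were higher and 2 mitosis genes lower. With equal weights and with thinned cells 1 growth plate receptor gene was lower, and with thinned cells 5 limb bud genes were. With equal weights and with thinned cells the calls of Ext1, Gli2, Gli3, Hapln1, Hoxc8, Igf2r, Mki67, Plk1 and Scx were lost. With 50 CPM added those of Comp, Matn1, Sox5, Runx2, Shox2, Gdf5, Hoxd12, Tnmd and Lin28b were among the losses. Depth limits genes read in few cells, and 1 cell can carry a pool, as pool 12 is 1 cell. No paired analysis was possible because each stage is 1 sample and the cell numbers do not pair cells across stages.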
